A study of Dugesia japonica with 4 samples.

Results

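The edge of head blastema sections was compared between its top and bottom ends and its middle stretch, in spatial transcriptomes of the regenerating head of Dugesia japonica, a freshwater planarian flatworm. A planarian rebuilds a lost head from a blastema, the mass of new tissue that forms at the wound from dividing stem cells and differentiates under signals that set position along the body. Genes whose activity differs between places of the regenerating tissue are therefore of long-standing interest in these animals. Visium arrays bind polyadenylated RNA from a tissue section at barcoded spots laid out in a honeycomb pattern. A spot can hold several cells of different types, or part of one.

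There are 4 libraries, wells A to D, all of wild-type (WT) animals whose heads were sampled at 5 dpa. Animals were frozen fresh, cut into cryosections of 8 µm running from anterior to posterior, and stained with haematoxylin and eosin. All wells belong to 1 group with no treatment, so the comparisons are between places within sections. The labels do not say whether wells hold separate animals, and p-values across wells measure at most the spread between these libraries, which may be technical. Fits by exposure class, by side, or by rim and interior hold 4 sums per well. Their p-values also draw on the spread between sums of the same well, which are not independent replicates.

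Members were chosen from spot positions alone. A section was a group of at least 5 connected tissue spots, and its rim was every spot with at least 1 of its 6 neighbouring positions off tissue. The distance u ran from 0 at the middle row of a section to 1 at its first and last row. Rim spots with u above 0.5 made up the end rim and the others the middle rim. The rim held 829 of the 1216 tissue spots (68.2%), 412 at the ends and 417 in the middle. Well A contributed 81 end and 67 middle spots, well B 75 and 76, well C 124 and 128, and well D 132 and 146. Of the remaining spots, 334 lay inside sections and 53 lay off them. Each well had 12 sections, with medians of 6.5, 7, 10 and 11 rows in wells A to D, so the end rim of the smaller sections of wells A and B spanned only a few rows.

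**Figure D1:**
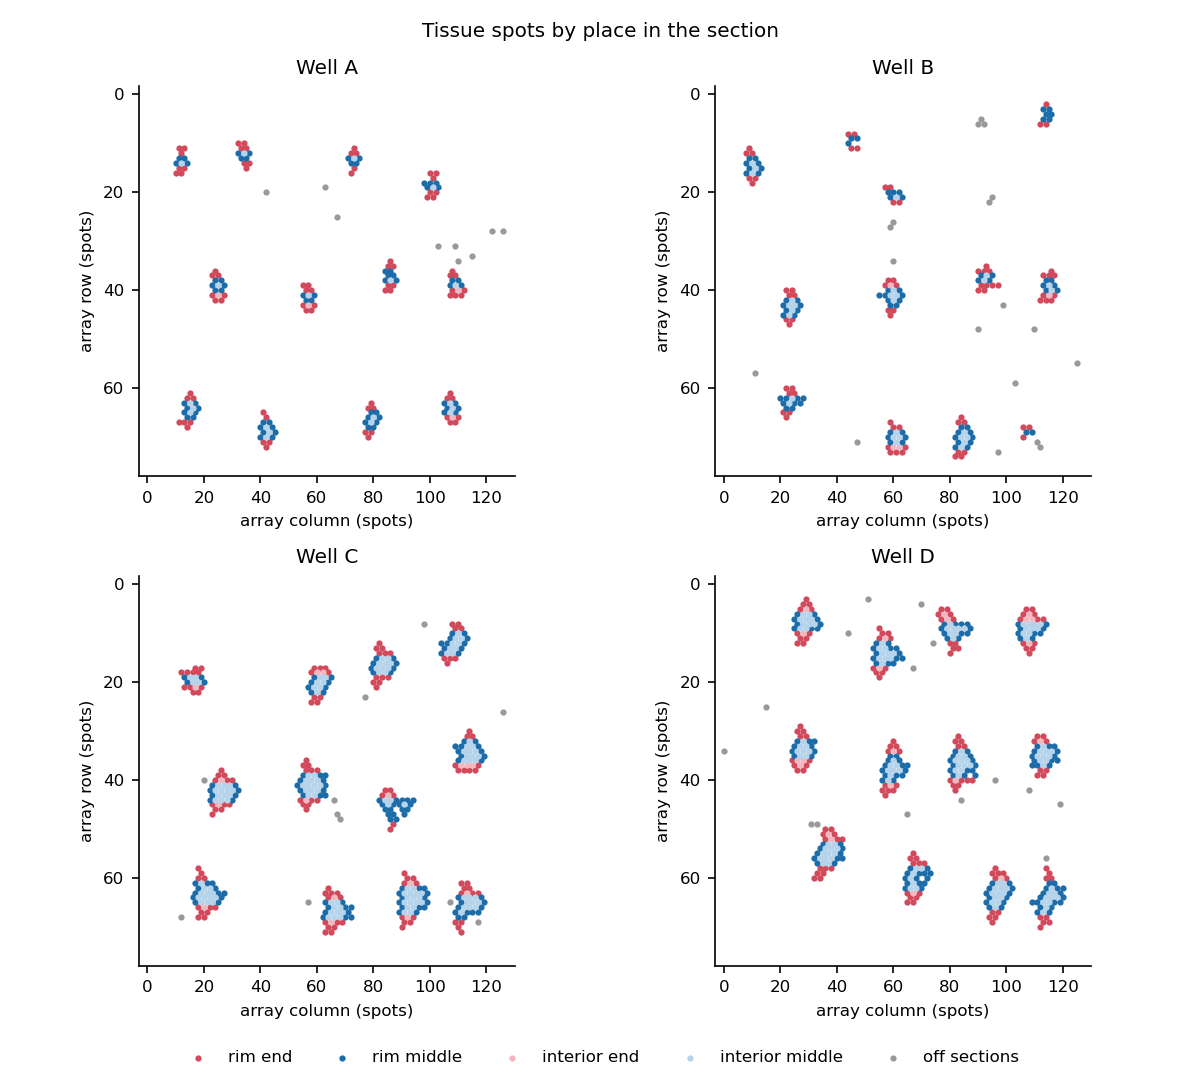
Tissue spots of the 4 wells by array column and array row, coloured by place in the section. The 412 end rim spots (red) cap the 48 sections at low and high rows, and the 417 middle rim spots (dark blue) line their left and right sides.

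Gene identity is limited in these data. The deposited feature tables list 38792 gene models, 28999 with a DJKW and 9793 with a Maker identifier, and pair none with a gene name. None of 26 marker names of stem cells, neurons, muscle, epidermis, gut, cilia or the body poles was found among them, so the tissue could not be checked against its markers and no role is given to any gene. The direction of head and tail, or of back and belly, within a section is not given in the labels either. Ends, left and right refer to the array.

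Depth over the rim was 7549393 unique molecular identifiers (UMIs, single captured RNA molecules), with 1275559 in A, 1646634 in B, 2542059 in C and 2085141 in D. The sums of end and middle rim held from 589122 UMIs, in the middle rim of well A, to 1292273, in the end rim of C. Finer divisions rest on less, such as 139744 UMIs in the right end rim of B and 190170 at the interior ends of C. Some levels given without a test rest on fewer still, such as 48248 UMIs in the right rim of C at u above 0.75. Since sums over spots are compared, fewer cells of a type and less RNA per cell cannot be told apart. The median end rim spot carried 8562, 9520, 9470 and 7637.5 UMIs in wells A to D, and the median middle rim spot 8552, 10369, 8771 and 6225. The ratio of end to middle was 1.06 ± 0.131 (SD, n = 4), below 1 in well B and 1.23 in well D, and did not stand apart from 1 (exact two-sided sign-flip test, p = 0.625, where the smallest possible p is 0.125). End rim spots had more neighbouring positions off tissue, by 0.582 ± 0.190 per spot (SD, n = 4), in 4 of 4 wells (exact sign-flip p = 0.125, the smallest possible). They also lay more often in the left part of a section. The left share of the end rim was 54.3%, 58.7%, 64.5% and 70.5% in wells A to D, and that of the middle rim 50.7%, 47.4%, 48.4% and 43.8%. These totals include spots on a section's middle column, which were more frequent at the ends. Without them, left and right end spots numbered 44 and 27 in A, 44 and 20 in B, 80 and 29 in C, and 93 and 34 in D. Left and right middle spots numbered 34 and 32, 36 and 36, 62 and 64, and 64 and 79. Exposure to the tissue border and side therefore moved with the comparison, and values within both are given below. The wells share from 19 to 112 spot barcodes per pair, which mark the same position of the array design and not shared tissue.

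The main comparison asked which genes differ along the rim of a section, between its ends and its middle. The end rim carried 78 genes at a higher level than the middle rim and the middle rim carried 58 at a higher level than the end rim, out of 7549 tested. These counts correspond to 1.03% and 0.768% of the genes tested, together 1.8%, by edgeR's quasi-likelihood test on summed UMI counts with the well as a block at a Benjamini-Hochberg adjusted p under 0.05. An unadjusted p under 0.05 was reached by 784 genes. The differences at the ends were the larger ones. At 4-fold or more, 25 genes were higher at the ends and 4 in the middle, and at 8-fold or more 8 and 1. The median log2 fold change was 1.46 for the genes higher at the ends, -1.18 for those higher in the middle and -0.01 for all genes tested.

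The wells differed in how clearly they showed the pattern. All 4 wells moved one way for 76 of the 78 genes higher at the ends and 52 of the 58 higher in the middle, against 18.9% of all genes tested. Well A went the other way for the remaining 2 end genes. The remaining 6 middle genes had no UMI in either zone of well A, and well B went the other way for 1 of them. The levels of all end zones lay apart from those of all middle zones for 36 of the 78 and 19 of the 58 genes, and for 2.38% of all genes tested. These shares describe genes called from the same counts and do not test them. Across the 7549 genes, which are not independent replicates, the log2 ratios of end to middle correlated at Pearson r = 0.436 between wells C and D, 0.340 between B and C, 0.266 between B and D and 0.204 between A and B. Well A correlated at 0.0842 with C and 0.0542 with D. The count of calls rested most on well C: without it 13 genes were higher at the ends and 3 in the middle. Without well A the calls were 191 and 129, without well B 49 and 34, and without well D 46 and 23.

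**Figure D2:**
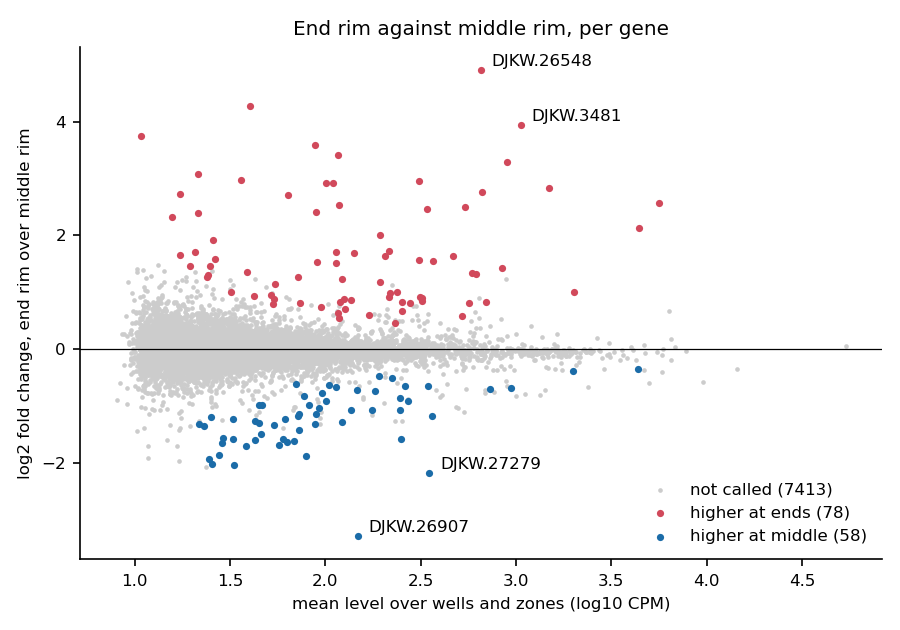
Log2 fold change of the end rim over the middle rim (vertical axis) against the mean level over wells and zones (horizontal axis, log10 CPM, the UMI counts of a gene relative to the total of its sum) for the 7549 genes tested. The 78 red genes were called higher at the ends and reach further from 0 than the 58 blue genes called higher in the middle, and the 4 named genes are labelled.

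DJKW.26548 had the largest difference among the genes of at least 50 CPM that moved one way in every well. CPM state a gene's part of the UMIs of a sum, on 1 scale for all sums of a comparison through TMM factors. The scale was set anew for each comparison, so the same spots can have other CPM in another comparison. In the end rim it stood at 917, 975, 1592 and 1614 CPM in wells A to D. In the middle rim it stood at 22.9, 39.3, 49.5 and 57.7 CPM. The lowest end value was more than 10 times the highest middle value, and the order of the wells was the same in both zones. The means were 1275 ± 380 and 42.4 ± 15.0 CPM (SD, n = 4), a 30.0-fold difference (log2 fold change 4.91 ± 0.13 SE, edgeR adjusted p = 6.04e-07).

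DJKW.3481 was more abundant and followed the same pattern. Its end rim levels were 1358, 1476, 2702 and 2418 CPM in wells A to D, and its middle rim levels 86.8, 71.8, 201 and 177 CPM. Wells C and D lay above A and B in both zones, and the zones did not overlap. The means of 1988 ± 672 and 134 ± 64.4 CPM (SD, n = 4) differed 15.4-fold (log2 fold change 3.95 ± 0.12 SE, edgeR adjusted p = 1.33e-06).

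DJKW.26907 led the genes higher in the middle rim. Its middle levels were 27.9 CPM in well A, 276 in B, 290 in C and 467 in D, and its end levels were 2.69, 16.8, 15.1 and 89.3 CPM. Well A was low and well D high in both zones, so the zones overlapped between wells, although the middle exceeded the end within each well. The means were 265 ± 180 CPM in the middle and 31.0 ± 39.4 at the ends (SD, n = 4), with a log2 fold change of -3.29 ± 0.30 (SE, edgeR adjusted p = 0.00150).

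DJKW.27279 was less variable. Its middle levels were 914, 484, 380 and 528 CPM in wells A to D and its end levels 195, 128, 70.5 and 116 CPM, with no overlap between the zones and well A highest in both. The means of 576 ± 234 and 127 ± 51.4 CPM (SD, n = 4) differed 4.56-fold (log2 fold change -2.19 ± 0.11 SE, edgeR adjusted p = 4.52e-05). All 4 genes were still called with each well left out in turn. On means over spots of log2 (scaled count + 1), a scale that understates changes of low genes, their differences were 1.16, 1.17, -0.51 and -0.78 in the order named (limma adjusted p = 8.53e-06, 1.20e-05, 0.00679 and 1.94e-04).

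**Figure D3:**
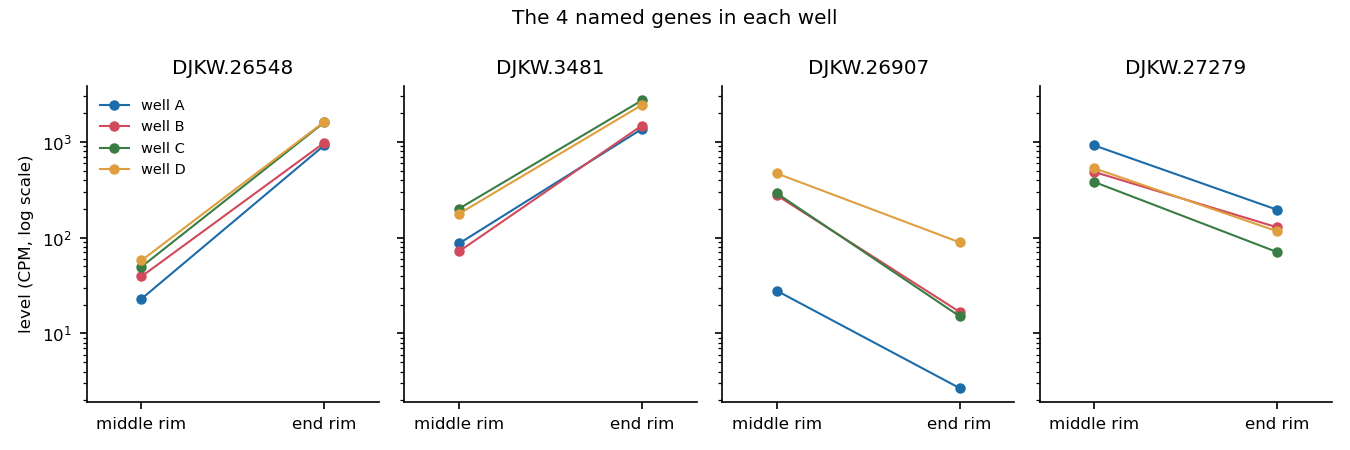
Levels of the 4 named genes in the middle rim and the end rim of each well, in CPM on a log axis, with a line joining the zones of 1 well. All 4 lines rise for DJKW.26548 and DJKW.3481 and fall for DJKW.26907 and DJKW.27279.

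The other genes of the end group ranged down to a log2 fold change of 0.45 and those of the middle group to a size of 0.34. The 78 genes higher at the ends supplied 4.39% ± 1.56 of the UMIs of the end rim, from 2.08% to 5.51% across wells, and 1.24% ± 0.301 of those of the middle rim (SD, n = 4). The 58 genes higher in the middle supplied 1.69% ± 0.278 of the UMIs of the middle rim and 1.04% ± 0.213 of those of the end rim. Of the end group, 9 were Maker models, of the middle group 0, and of all 7549 genes tested 125.

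The next question was where along the rim the levels changed. The rim was divided by u into 4 stretches of 219, 198, 195 and 217 spots, from the middle row outwards, and levels were taken as CPM of each stretch's own total. DJKW.26548 stood at 46.2 ± 19.7 and 36.0 ± 9.76 CPM in the middle stretches, at 154 ± 58.7 in the third and at 2258 ± 278 in the outermost (SD, n = 4). DJKW.3481 went from 121 ± 69.4 and 148 ± 48.7 CPM to 289 ± 83.3 and then 3472 ± 637. The level of both genes thus lay mainly in the outermost stretch, with a smaller step beyond u of 0.5.

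The middle genes had their larger values in the stretches below u of 0.5. DJKW.27279 stood at 611 ± 264 and 560 ± 328 CPM in the middle stretches, 171 ± 79.0 in the third and 83.0 ± 42.8 in the outermost. DJKW.26907 stood at 315 ± 214, 215 ± 195, 46.0 ± 67.2 and 15.5 ± 13.6 CPM. Just outside and just inside the border, at u of 0.4 to 0.5 (79 spots) and 0.5 to 0.6 (100 spots), the mean levels were 38.7 and 95.9 CPM for DJKW.26548, 169 and 217 for DJKW.3481, 88.9 and 64.2 for DJKW.26907, and 293 and 292 for DJKW.27279. With the intermediate spots left out (ends beyond u of 0.667, middle up to 0.333), the log2 fold changes were 5.44, 4.58, -4.15 and -2.95 in the same order. Across the border itself the wells did not all move one way. DJKW.26548 fell in well B, from 31.5 to 17.6 CPM, and rose in the other wells. DJKW.3481 fell in well A, from 240 to 193 CPM, and rose in the other wells, in D only from 200 to 204.

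**Figure D4:**
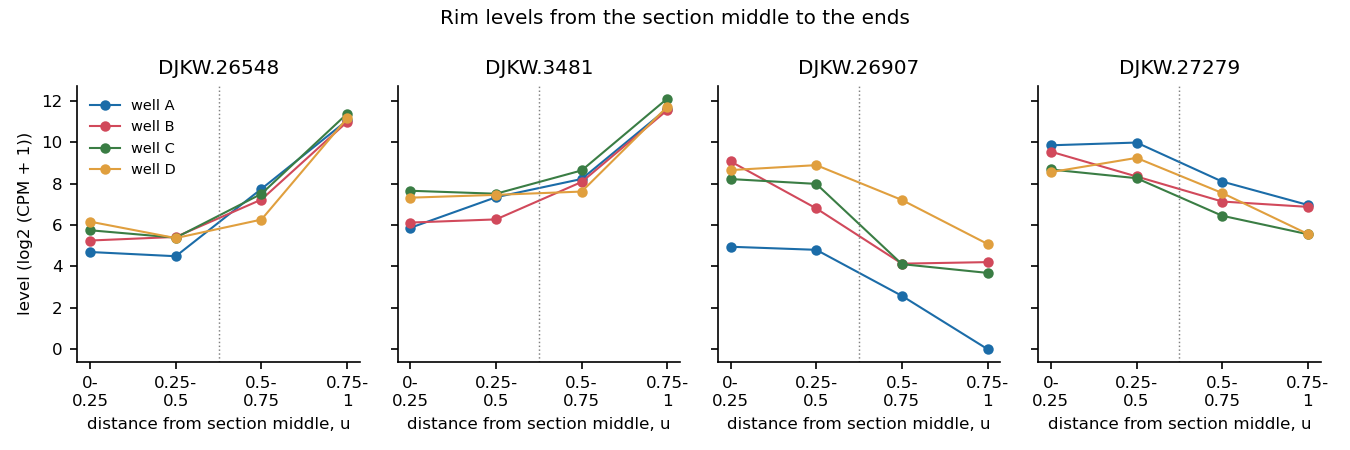
Rim levels of the 4 named genes, as log2 (CPM + 1), in 4 stretches of u from the section middle to the section ends, 1 line per well, with the border between middle and end rim dotted. DJKW.26548 and DJKW.3481 reach their highest levels in the outermost stretch of every well, at means of 2258 and 3472 CPM.

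Nearly every section showed the difference. The end rim exceeded the middle rim in 46 of 48 sections for DJKW.26548, with 1 section the other way and 1 without a UMI, and in 46 of 48 for DJKW.3481. The middle rim exceeded the end rim in 45 of 48 sections for DJKW.27279. For DJKW.26907 it did so in 40 of 48, while 5 other sections had no UMI in either zone. Sections of 1 well are not independent replicates. Their end levels spread widely, from 0 to 5597 CPM for DJKW.26548 and from 31.9 to 8207 CPM for DJKW.3481.

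Within the end rim the leading genes were concentrated in few spots. The 10% of end spots with the most UMIs of DJKW.26548 held 81.1% ± 7.12 of its end rim UMIs, and for DJKW.3481 the share was 80.2% ± 5.90 (SD, n = 4), while the deepest 10% of end spots held 20.5% of all UMIs. At least 1 UMI of DJKW.26548 was found in 53.7% ± 2.90 of end spots and 29.4% ± 6.80 of middle spots. With each spot thinned to 2000 UMIs, which left out 20 end and 12 middle spots, the shares were 35.6% ± 6.20 and 7.78% ± 4.33. For DJKW.3481 the shares were 72.7% ± 7.39 and 58.9% ± 14.4, and 45.5% ± 2.47 and 22.4% ± 10.3 after thinning. Free RNA can place UMIs in spots without expressing cells, and no spots known to lack these genes were at hand, so the middle rim is the only level against which the end shares are set. Of the 412 end spots, 196 had UMIs of both genes, 108 of DJKW.3481 alone, 24 of DJKW.26548 alone and 84 of neither.

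Spots were then divided into classes of exposure to the tissue border. At least 3 off-tissue neighbours were found for 61.7%, 66.7%, 49.2% and 47.7% of end spots and for 40.3%, 35.5%, 31.3% and 33.6% of middle spots in wells A to D. Exposure still differed among these spots. At least 4 off-tissue neighbours were found for 24, 25, 22 and 23 end spots and for 1, 6, 9 and 9 middle spots. Among spots with 3 or more, DJKW.26548 stood at 2410 ± 959 CPM at the ends and 53.9 ± 23.0 in the middle, and among spots with fewer at 220 ± 95.1 and 38.4 ± 12.7 (SD, n = 4). DJKW.3481 stood at 3734 ± 1633 and 112 ± 48.8 CPM in the more exposed class and at 381 ± 160 and 147 ± 71.4 in the other. Both genes were thus higher at the ends in each class, with the higher ratio in the exposed one, a difference that was not tested. With the class as a term, the log2 fold changes were 4.0 ± 0.38 and 3.12 ± 0.47 (SE, edgeR adjusted p = 4.18e-06 and 5.07e-04). DJKW.26907 and DJKW.27279 were at -2.96 ± 0.29 and -2.27 in that fit (edgeR adjusted p = 4.72e-06 and 1.30e-05), close to the values above. The fit called 106 genes higher at the ends and 102 higher in the middle of 6148 tested. It held 4 sums per well, which are not independent replicates. Its p-values and counts therefore do not compare directly with those of the main comparison.

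The ends of a section were compared with each other to ask whether they are alike. Of 5439 genes tested, 5 were higher in the end rim at low rows and 2 at high rows (0.0919% and 0.0368%, edgeR), and an unadjusted p under 0.05 was reached by 404 genes. The low-row and high-row end rims held 200 and 212 spots, with mean u of 0.796 and 0.803 and a median depth that averaged 7632 and 9300 UMIs per spot over wells. The left share was 54.1%, 58.3%, 58.1% and 63.1% at low rows in wells A to D. At high rows it was 54.5%, 59.0%, 71.0% and 77.6%, so side also differed between the ends in wells C and D. This comparison uses the same end spots as the main one. Of the 78 genes higher at the ends, 74 were tested here and 65 were above 0, that is higher at low rows, with a median log2 difference of 0.25. Of the 58 genes higher in the middle, 43 were tested and 36 were below 0, with a median of -0.17. Of all genes tested here, 49.7% were above 0. These leans of the groups were not tested. DJKW.26548 stood at 1449, 1183, 1840 and 2349 CPM at low rows and 603, 851, 1387 and 1015 at high rows in wells A to D, higher at low rows in each. Its log2 difference was 0.83 ± 0.12 (SE, edgeR adjusted p = 0.00706). DJKW.3481 stood at 2012, 1926, 2927 and 3277 CPM at low rows and 989, 1172, 2549 and 1733 at high rows, with a log2 difference of 0.71 ± 0.11 (SE, edgeR adjusted p = 0.00706). DESeq2 called 0 genes here, with adjusted p = 1.0 for both and 50 genes at an unadjusted p under 0.05, and DJKW.3481 was not called without well B (edgeR adjusted p = 0.0887). The lower of both ends still stood more than 10 times above the middle rim in each well for DJKW.26548. Of the 5 genes higher at low rows, 2 moved that way in only 2 of 4 wells.

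The left and right sides of the sections were then separated. The left end rim carried DJKW.26548 at 1452, 1201, 2164 and 2140 CPM in wells A to D and the right end rim at 346, 71.8, 100 and 148 CPM. The left and right middle rims were at 42.6 and 42.9 CPM on average. DJKW.3481 stood at 2211, 1756, 3603 and 3178 CPM in the left and 453, 152, 301 and 344 CPM in the right end rim, against means of 134 in both middle rims. The lowest left end value of each gene exceeded its highest right end value. For DJKW.3481 the end effect differed between sides by -3.03 ± 0.36 on the log2 scale, right minus left (SE, edgeR adjusted p = 0.00276), more positive on the left in 4 of 4 wells. It was the only gene called of 6010 tested (0.0166%, 450 at an unadjusted p under 0.05). The call was lost without well C (edgeR adjusted p = 0.216) or well D (0.193). DJKW.26548 did not pass, at -3.33 ± 0.61 (SE, edgeR adjusted p = 0.109).

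Fitted separately, the left rim gave 117 genes higher at the ends and 121 in the middle of 5773 tested (2.03% and 2.1%, together 4.12%), and the right rim 11 and 6 of 3434 (0.32% and 0.175%, together 0.495%). The counts are not a test of the difference, since the right end rim held 110 spots and the left 261. On the left, DJKW.26548 was at 5.30 ± 0.20 and DJKW.3481 at 4.32 ± 0.09 (log2 fold change, SE, edgeR adjusted p = 1.10e-06 and 6.34e-09). On the right they were at 1.75 ± 0.47 and 1.23 ± 0.34 (edgeR adjusted p = 0.387 and 0.391). Right end spots also lay less far out: 30.9% ± 8.07 had u above 0.75, against 58.1% ± 8.80 on the left (SD, n = 4). Among spots with u above 0.75 alone, DJKW.26548 stood at 2992 ± 286 CPM on the left (158 spots) and 366 ± 360 on the right (33 spots, 6 to 10 per well), and DJKW.3481 at 4593 ± 623 and 617 ± 493.

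Both middle genes were also highest on the left. DJKW.27279 stood at 870 ± 268 CPM in the left middle rim and 145 ± 86.3 in the right, and at 154 ± 71.0 and 73.6 ± 45.5 in the left and right end rims (SD, n = 4). Its end effect was -2.57 ± 0.12 on the left and -0.99 ± 0.26 on the right (log2, SE, edgeR adjusted p = 8.37e-06 and 0.351), with a difference between sides of 1.57 ± 0.48 that was not called (edgeR adjusted p = 0.459). DJKW.26907 stood at 416 ± 305 CPM in the left middle rim and 86.2 ± 95.0 in the right, and was too scarce on the right to be tested there.

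**Figure D5:**
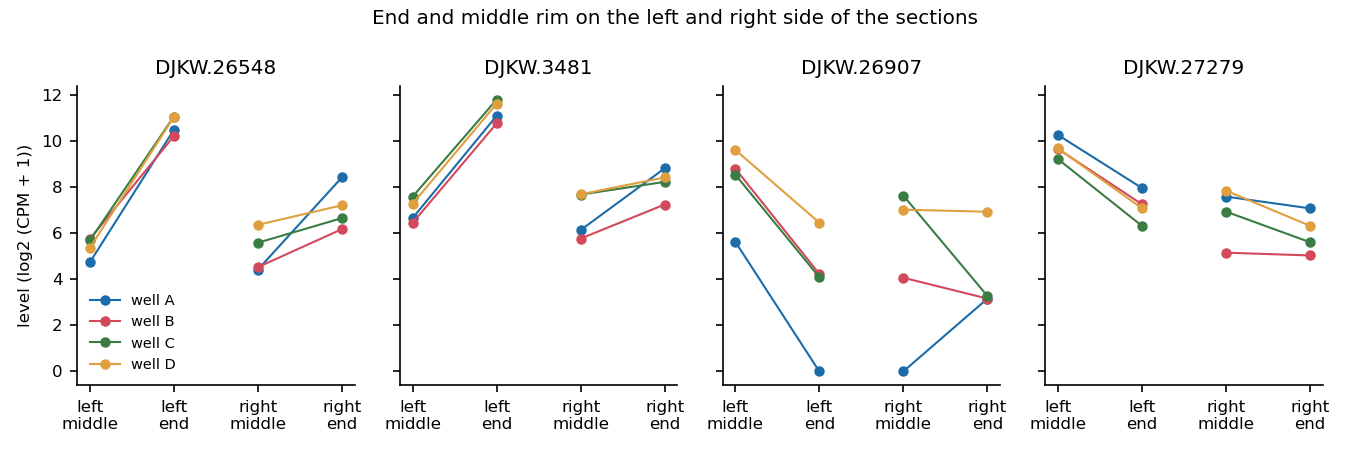
Levels of the 4 named genes, as log2 (CPM + 1), in the middle and end rim on the left and the right side of the sections, 1 line per well and side. DJKW.26548 and DJKW.3481 are highest in the left end rim of every well, and DJKW.27279 in the left middle rim.

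The same division was applied to spots inside the sections, which the main comparison did not use. Such spots have tissue on all 6 sides, so none lies in a section's first or last row, which the end rim includes. Wells C and D alone had enough of them, with 16 and 21 interior spots at the ends, while A and B had 4 each, so these values rest on few spots and 2 wells. Of 6033 genes tested, 27 were higher at the interior ends and 16 in the interior middle (0.448% and 0.265%, edgeR). Side moved with this comparison too: 81.3% and 76.2% of the interior end spots of wells C and D lay on the left, against 47.2% and 58.8% of the interior middle spots. DJKW.26548 and DJKW.3481 were not among the genes called inside (log2 fold changes 0.64 ± 0.37 and 0.44 ± 0.21 SE, edgeR adjusted p = 1.0 for both). Of the named middle genes, DJKW.26907 was called inside too, at -2.41 ± 0.40 (SE, edgeR adjusted p = 0.0191). DJKW.27279 was not, at -1.81 ± 0.41 (edgeR adjusted p = 0.121). Of the 78 genes higher at the end rim, 57 were tested inside, 44 of these were above 0 there with a median log2 fold change of 0.53, and 16 were called. Of the 58 genes higher at the middle rim, 43 were tested, 38 were below 0 with a median of -0.30, and 4 were called. Of all genes tested inside, 49.3% were above 0, with a median of -0.01.

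Maker00011792 led the genes higher at the interior ends. It rose from 311 to 1166 CPM in well C and from 160 to 1524 CPM in well D (log2 fold change 2.58 ± 0.28 SE, edgeR adjusted p = 8.49e-04). On the rim it went from 57.3 to 238 CPM in well A, 514 to 2354 in B, 498 to 3303 in C and 254 to 4644 in D (2.83 ± 0.32, edgeR adjusted p = 0.00308). Well A was far below the others in both zones. Its end rim held the gene mainly at low rows, at 559 CPM against 26.3 at high rows. The other wells stood at 2024, 3014 and 4363 CPM at low rows and 2769, 3686 and 5049 at high rows. Levels of Maker00011792 in the left and right end rims overlapped, at 2499 ± 2098 and 2819 ± 1781 CPM (SD, n = 4). The end effect was 3.60 ± 0.33 on the left and 2.41 ± 0.27 on the right (edgeR adjusted p = 3.95e-04 and 0.0185), and the difference of -1.19 ± 0.60 was not called (edgeR adjusted p = 0.673). Maker00019347 had end effects of similar size, at 2.53 ± 0.30 inside and 2.92 ± 0.27 on the rim (edgeR adjusted p = 0.00152 and 0.00150). Its levels were lower, with well A at 3.28 CPM in the middle rim and 14.8 in the end rim. On the right rim alone it was not called (2.43 ± 0.40, edgeR adjusted p = 0.0642). Neither gene's end effect was shown to differ between rim and interior (0.94 ± 0.39 and 0.38 ± 0.46, edgeR adjusted p = 0.629 and 0.926).

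In the other direction, DJKW.23720 fell from 3050 to 256 CPM in well C and from 8519 to 1148 CPM in well D between the interior middle and the interior ends (log2 fold change -3.21 ± 0.20 SE, edgeR adjusted p = 3.33e-05). DJKW.23725 was at -2.75 ± 0.20 (edgeR adjusted p = 3.94e-05). Both genes were lower at the ends also among left interior spots alone, where DJKW.23720 stood at 2033 CPM in the middle and 210 at the ends in well C and at 6300 and 944 in well D. This left-side comparison rests on 13 and 16 end spots and was not tested. On the left, Maker00011792 stood at 266 and 1477 CPM in well C and at 157 and 1547 in well D in the same order.

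On the whole rim DJKW.23720 and DJKW.23725 were at -1.01 ± 0.29 and -1.10 ± 0.32 and were not called over all 4 wells (log2 fold change, SE, edgeR adjusted p = 0.180 and 0.197). The right rim alone gave calls for both, at -2.24 ± 0.25 and -2.16 ± 0.29 (edgeR adjusted p = 0.0185 and 0.0299), and the left rim alone values of 0.00 ± 0.17 and 0.10 ± 0.31. The difference between the sides was not called for either (-2.42 ± 0.69 and -2.43 ± 0.57, edgeR adjusted p = 0.452 and 0.371). DJKW.23720 averaged 973 ± 820 CPM in the right middle rim and 346 ± 367 in the left (SD, n = 4), higher on the right in each well. The end effect was less negative on the rim than inside in wells C and D, by 2.24 ± 0.38 and 1.90 ± 0.34 (edgeR adjusted p = 0.00643 and 0.00915).

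Whether the end effect was larger on the rim than inside was tested as an interaction in wells C and D. Of 8521 genes, 28 had a more positive end effect on the rim and 15 a more negative one (0.329% and 0.176%, together 0.505%, edgeR), and the median over all genes tested was 0.11, which was not subtracted from the values below. In well C, DJKW.26548 stood at 1327 CPM in the end rim, 41.4 in the middle rim, 31.6 at the interior ends and 55.0 in the interior middle. In well D it stood at 1334, 47.6, 154 and 66.6 CPM. The end rim stood above the other 3 places in both wells, and the difference of the effects was 4.27 ± 0.41 on the log2 scale (SE, edgeR adjusted p = 1.75e-05). DJKW.3481 stood at 2251, 168, 205 and 211 CPM in well C and at 1999, 146, 304 and 183 CPM in well D in the same order, a difference of 3.37 ± 0.26 (edgeR adjusted p = 1.50e-06). The end rim includes the first and last rows of a section, where no interior spot lies. Rim and distance u thus cannot be told apart here. On the rim at u of 0.5 to 0.75, DJKW.26548 stood at 180 CPM in well C and 75.5 in D, against 31.6 and 127 at the interior ends. DJKW.3481 stood at 396 and 195, against 205 and 251. These are CPM of each part's own total.

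DJKW.9536 and DJKW.1659 went the other way, with differences of -2.28 ± 0.37 and -2.26 ± 0.28 (SE, edgeR adjusted p = 0.00432 and 4.38e-04). DJKW.1659 stood at 39.7 ± 0.276 CPM in the end rim, 68.8 ± 25.8 in the middle rim, 340 ± 71.1 at the interior ends and 120 ± 49.9 in the interior middle (SD, n = 2). Its interior effect was called (1.60 ± 0.19, edgeR adjusted p = 0.00165) and its rim effect was not (-0.94 ± 0.31, edgeR adjusted p = 0.316). Well A held no UMI of it in either rim zone, so the rim effect rests on the other wells. DJKW.9536 stood at 30.8 CPM in the end rim, 114 in the middle rim, 237 at the interior ends and 281 in the interior middle of well C, and at 75.5, 191, 879 and 332 CPM in well D. Inside, the wells thus went opposite ways. Its rim effect was called (-1.63 ± 0.23, edgeR adjusted p = 0.0142), and its interior effect was not (0.72 ± 0.31, edgeR adjusted p = 1.0). The rim call rests on wells C and D, since well A held no UMI of it in either rim zone and well B stood at 8.98 CPM in the middle and 0 at the ends.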

How the data were processed

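Per the file headers, the deposited matrices hold raw UMI counts per feature and spot from Space Ranger 2.0.1; the authors deposited counts for spots on tissue with their array positions. The submitters' processing notes list Seurat without saying what it did. As to genome build and annotation, they were not given in the sources used here. Members and lists were chosen with earlier results of these data known.

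Spots were put into zones by position and counts summed per well and zone. A well entered a comparison with at least 5 spots and 20000 UMIs in each sum. The quasi-likelihood F-test of edgeR 4.0.16 (R 4.3.3) was run on these sums after filterByExpr and TMM scaling, with the well as a block because all zones lie on the same sections of a well. Standard errors are the log2 fold change divided by the root of F. The threshold was 0.05 for p-values adjusted by Benjamini and Hochberg's method over all genes tested. Named genes are the 2 per direction and comparison with the largest change among those called, moving one way in every well and averaging at least 50 CPM. Left and right spots exclude those on a section's middle column. Alternatives used DESeq2 1.42.0, limma 3.58.1, other scalings, filters, zone borders and blocks, UMI matching and each well left out. The separate left and right fits, the left interior levels and the blocks of well with side or place were added after seeing the data. Scripts were tested on simulated data. Spots are not single cells, so doublets were not called.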

Additional observations from a re-analysis of the deposited data

Results flagged for a closer look

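One level stood apart from its group. DJKW.26907 was at 89.3 CPM in the end rim of well D, while the other wells lay between 2.69 and 16.8 CPM. Of 26 sets of 4 wells examined in this way 1 was found, and chance gives about 1.3.

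Among the genes named here, 7 effects differed between places by an interaction test; the counts over all genes are given with those comparisons. The end effect was larger on the rim than in the interior for DJKW.26548 (by 4.27 on the log2 scale) and DJKW.3481 (by 3.37). It was more negative on the rim for DJKW.9536 (-2.28) and DJKW.1659 (-2.26). It was less negative on the rim for DJKW.23720 (2.24) and DJKW.23725 (1.90). Interior ends do not reach a section's first and last rows, which the end rim includes. Rim and distance u thus cannot be told apart in these differences. Between the sides, the end effect was smaller on the right rim than on the left for DJKW.3481 (-3.03).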

How the results depend on the processing

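The 15 results for named genes kept their direction under all 125 alternatives run and their call under 111. Without the replicate block, 6 genes were higher at the rim ends and 1 in the middle, with DJKW.26907 and DJKW.27279 not called (edgeR adjusted p = 0.798 and 0.146), 3 and 0 inside, 0 and 0 between low and high rows, 2 and 0 for rim against interior, and 0 on the left for the sides. With no filter on low counts the calls were 215 and 201, 56 and 15 (low and high rows), 29 (interior middle), 96 and 35 (rim against interior) and 142 and 21 (more positive on left and right); the cause was not tested. DESeq2 gave 53 genes higher at the rim ends, of which 52 were among the 78 reported, and 35 higher at the rim middle. It gave 7 at the interior ends, 0 and 0 between rows, 9 more negative on the rim, and 3 and 1 between the sides. With limma on spot means 31 genes were higher in the middle and 67.4% of calls were higher at the ends (57.4% in the fit reported). With the off-tissue neighbour class as a term 102 were higher in the middle, with well and place together as a replicate block 44 were more positive on the rim, and with library totals 1 was more positive on the right. Leaving out 1 well gave 13 to 191 genes higher at the ends, 3 to 129 in the middle, 2 to 15 at low rows, 0 to 8 at high rows, 0 to 2 more positive on the left and 0 to 1 on the right. The log2 ratio of UMIs per spot was 0.071 with all wells and ranged from -0.00364, without well D, to 0.136. Few interior and right end spots limit what those comparisons can show.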
